A study of Mus musculus with 12 samples.

Results

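The scaffold of the sarcomere was followed through 39 genes that code for titin, nebulin and the proteins of the Z-disc, the M-band, the thin filament ends and sarcomere assembly. The members were taken by gene symbol from a list of scaffold and assembly genes, set by role and not by a threshold on measured values although earlier results of these data were known, and all 39 were present among the 78298 genes of the deposited tables. They were measured in muscle tissue made from C2C12, an established line of mouse myoblasts. The wild-type cells (WT, 6 libraries) were compared with a C2C12 line that carries the genetically encoded calcium indicator RGECO (5 libraries used). Tissues of both lines grew on methacrylated gelatin and were differentiated for 14 days in DMEM with 10% inactivated horse serum, with 50 ng per ml of IGF-1 and with aminocaproic acid (1 mg per ml), and poly(A)-selected RNA was sequenced. The labels do not say whether the RGECO line is 1 clone, how the indicator was introduced and whether each replicate is a culture of its own. The p-values therefore reflect spread between libraries, which may be technical.

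Myofibrils are built from repeating sarcomeres. Thin filaments are crosslinked by alpha-actinin at the Z-disc, and thick filaments are tied together by myomesins at the M-band. Titin runs from the Z-disc to the M-band and acts as a molecular spring and blueprint, while nebulin lies along the thin filament. Leiomodins and tropomodulins act at the pointed ends of thin filaments, where leiomodins favour elongation and tropomodulins cap. Adaptors such as myotilin, myozenins and PDZ-LIM proteins link the Z-disc lattice to desmin, to filamin and to signalling enzymes. Kelch proteins, the chaperone Unc45b and the methyltransferase Smyd1 are needed to build and keep the filaments.

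The WT libraries held 9370320 to 11744300 estimated counts and the 5 RGECO libraries 5881620 to 11926200. RGECO replicate 4 held 825 counts and was left out. All 10 skeletal muscle markers passed the filter on low counts, among them myogenin, Ckm and Acta1, so the libraries hold differentiated muscle RNA although the cell type label reads myoblast. The summed TPM (a transcript level corrected for length and scaled to the library's sum) of these markers was 9196 to 10988 in WT and 11378 to 15778 in RGECO, which do not overlap. Most of this sum was Acta1, at a mean of 7392 TPM in WT and 9486 in RGECO. In the count test between the lines given below, 0 markers were higher and 0 lower of the 10 tested. The summed TPM of 8 fibroblast-like markers was 1000 to 1767 in WT and 852 to 960 in RGECO, which do not overlap either, with 1 marker higher and 3 lower of the 6 tested. Markers of cardiac muscle summed to 19.3 to 41.3 TPM in WT and 18.2 to 24.0 in RGECO with Nppa and Myl7 at 0, and those of smooth muscle, which share Des with the members, to 2659 to 3613 and 2994 to 4437. Des alone had a mean of 1675 TPM in WT and 2491 in RGECO. The other abundant smooth muscle markers had lower means in RGECO, with Acta2 at 1048 and 881, Tagln at 164 and 109 and Smtn at 131 and 126. Myh11, near 0 in both lines, had a higher one (0.101 and 0.169). Markers of neurons and glia summed to 9.50 to 19.5 TPM in WT and 17.3 to 36.7 in RGECO with Snap25 and Rbfox3 at 0, those of macrophages to 20.7 to 31.2 and 18.1 to 40.2 with Adgre1 at 0, and those of endothelium to at most 0.589 with Emcn at 0. In the count test, 1 of the 2 neuron and glia markers tested was higher in RGECO, Tubb3 (adjusted p = 0.0255). Its mean was 12.5 TPM in WT and 24.6 in RGECO. Of the 5 smooth muscle markers tested, 0 were higher and 1 was lower, Tagln (adjusted p = 0.0178). The share of counts taken by Malat1, a nuclear noncoding RNA, ranged from 0.156% to 0.898% in WT and from 0.180% to 0.645% in RGECO. The part of these differences in the results that follow was not tested, except where a value with the Malat1 share is given.

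Sequences before the RefSeq start of several of these genes are shown first, because muscle promoters are known to be bound by MyoD family proteins at E-boxes (CANNTG) and by MEF2 proteins at an AT-rich element. RefSeq promoters of GRCm38.p6 were found for 29 of the 39 members, as 36 promoters, and the 250 bases before each start were searched on both strands. An element matching the MEF2 pattern was present in 7 of the 36 member promoters (19.4%) and in 2.92% of all 32851 promoters. The E-box pattern was present in 27 (75.0%) against 66.2% of all, the TATA box letters TATAAA in 6 (16.7%) against 12.4%, CATTCC, known to be bound by TEAD proteins, in 7 (19.4%) against 12.6%, and the CArG box, known to be bound by SRF, in 3 (8.33%) against 1.47%. An E-box and the other patterns may overlap, and a match describes letters only. The promoters are not independent, and the matches fall in fewer genes than promoters. Those with a CArG box belong to Myom1 and to Ldb3, whose promoters overlap, so their matches may be the same site. Both promoters of Synpo2l hold a MEF2 match, and for one of them all 40 bases of the window lie inside the annotated gene. Windows around the MEF2 match are given 5′ to 3′ on the gene's strand, with the match in capitals, for 4 members, Xirp2 as one that passed the test between the lines, Ttn, and Myoz2 and Myom3 from the myozenins and myomesins. Klhl41 and Synpo2l also hold a match, and their windows are not shown. They lie at chr2:67445913-67445952 on the + strand for Xirp2, chr2:76982689-76982728 on the − strand for Ttn, chr3:123034996-123035035 on the − strand for Myoz2 and chr4:135759665-135759704 on the + strand for Myom3. Of the 40 bases shown for Myoz2, 20 lie inside the gene as annotated in GENCODE, which starts further upstream than RefSeq, and they include part of the match.
Xirp2: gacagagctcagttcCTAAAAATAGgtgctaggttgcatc
Ttn: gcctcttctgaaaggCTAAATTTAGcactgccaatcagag
Myoz2: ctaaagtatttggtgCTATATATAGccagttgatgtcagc
Myom3: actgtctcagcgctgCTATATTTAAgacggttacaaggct

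The 2 members that follow differed between the lines in opposite directions, and neither window holds a match to the MEF2 pattern. For Lmod2, 241 bases before the gene at chr6:24597521-24597761 on the + strand hold 1 E-box, and for Actn2, 222 bases before the gene at chr13:12340761-12340982 on the − strand hold 3, each in capitals.
Lmod2: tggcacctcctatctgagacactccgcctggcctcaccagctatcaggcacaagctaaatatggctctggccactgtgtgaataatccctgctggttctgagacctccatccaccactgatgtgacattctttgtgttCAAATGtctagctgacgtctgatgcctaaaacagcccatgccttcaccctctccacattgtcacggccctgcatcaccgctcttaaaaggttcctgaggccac
Actn2: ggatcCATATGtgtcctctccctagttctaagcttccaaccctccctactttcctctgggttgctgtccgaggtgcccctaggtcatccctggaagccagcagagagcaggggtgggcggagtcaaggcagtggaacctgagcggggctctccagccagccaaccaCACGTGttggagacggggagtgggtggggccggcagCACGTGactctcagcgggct

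The members' levels spanned a wide range. On TPM, averaged over the 11 libraries, desmin (Des, the muscle intermediate filament) was highest at 2046, followed by Mybph (myosin-binding protein H) at 1677. The next were Klhl41 at 379, Actn3 at 327, Ttn at 258, Pdlim3 and Csrp3 at 256 each and Myom2 at 252. The lowest were Myoz1 at 7.18, Xirp2 at 4.13, Tmod4 at 4.03 and Myoz3 at 0.199 TPM. Titin, whose longest annotated transcript has 106824 bases, took a median of 28.5% of the members' counts (22.2% to 34.6%) but 3.12% of their TPM (2.44% to 4.41%). Desmin took a median of 17.9% of the members' counts and 24.1% of their TPM. The 39 members together made up 2.35% ± 0.258 (SD, n = 6) of all counts in the WT libraries and 2.58% ± 0.173 (SD, n = 5) in the RGECO libraries. Their summed TPM was 7331 ± 601 (SD, n = 6) in the WT libraries and 8840 ± 664 (SD, n = 5) in the RGECO libraries, and these ranges overlap (6918 to 8497 and 8336 to 9853).

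**Figure D1:**
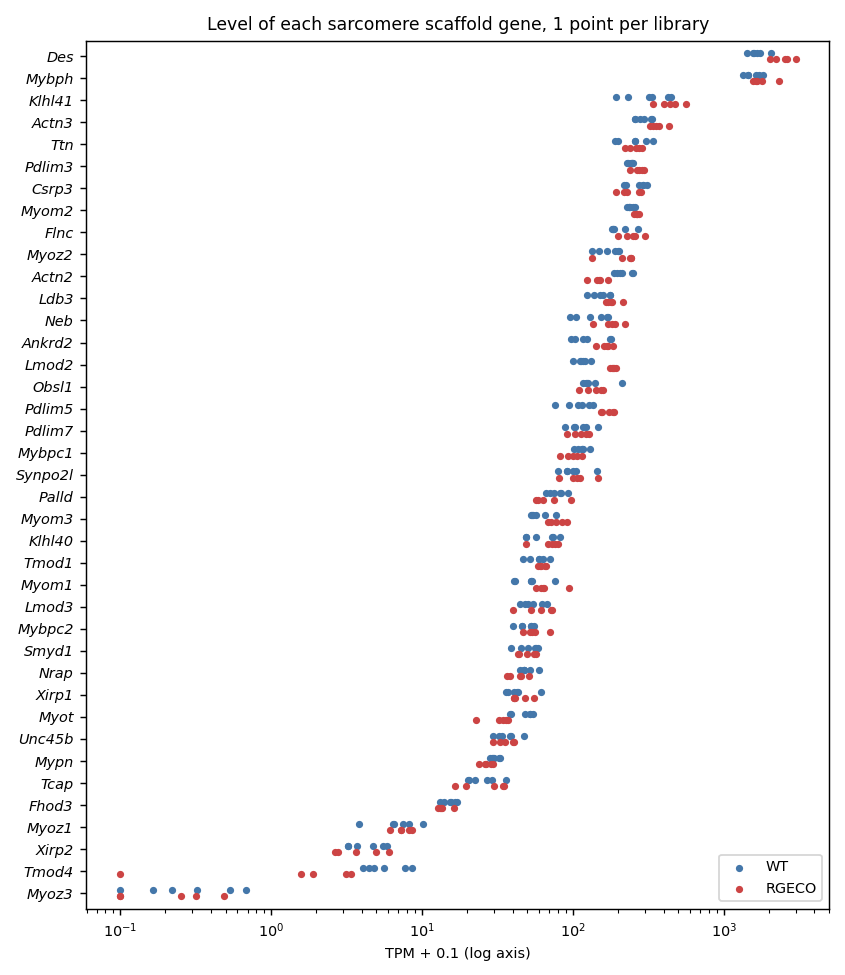
TPM plus 0.1 on a log axis for each of the 39 members, 1 point per library, with WT in blue and RGECO in red and genes ordered by mean TPM. Des and Mybph lie above all other members, and Myoz3 lies near 0 in both lines.

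Most of the scaffold differed by less than 2-fold between the lines. Of the 38 members tested, 2 were higher in RGECO (Lmod2 and Pdlim5), 4 were lower (Actn2, Myot, Xirp2 and Tmod4) and 32 did not pass adjusted p 0.05 in the quasi-likelihood F test of edgeR, adjusted by Benjamini-Hochberg over 13318 genes. Myoz3 was not tested because its counts were too low. The 6 calls are 15.8% of the members tested, against 8.35% of all genes. Higher calls were 5.26% of members and 3.42% of all genes, and lower calls 10.5% of members and 4.93% of all genes. The median log2 fold change of the members (RGECO minus WT, as in all fold changes below) was 0.01, and that of all genes -0.01. The 95% interval stayed within a 2-fold change either way for 37 of the 38 members (97.4%) and for 74.0% of all genes, with Tmod4 the exception. The width of an interval depends on a gene's counts, and all genes were not matched to the members by level. These shares therefore do not show that the members are more stable than other genes. The CPM ranges of the lines did not overlap for 5 of the 38 members tested (13.2%), against 7.97% of all genes, and these 5 are the called members other than Xirp2. The tissue is a bulk sample, so fewer cells of a type and less RNA per cell cannot be told apart.

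**Figure D2:**
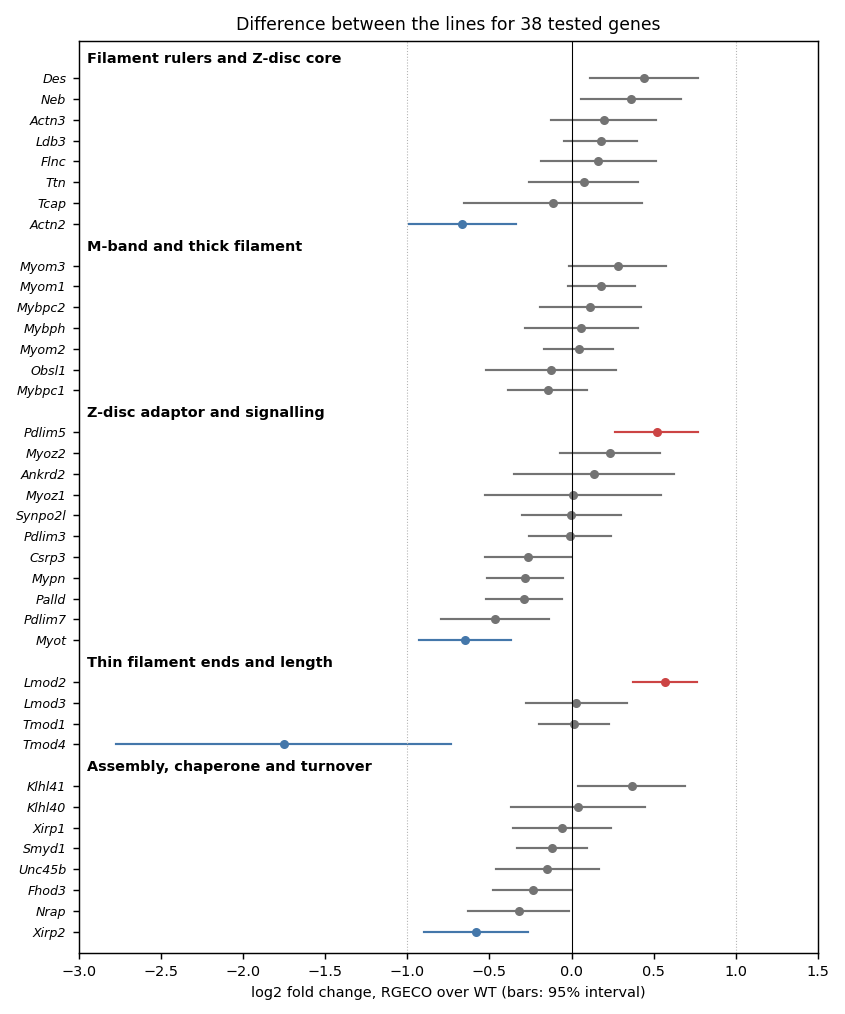
Log2 fold change (RGECO minus WT) with its 95% interval for each tested member, grouped by role, with calls above 0 in red, calls below 0 in blue and the rest in grey. Tmod4 at -1.75 lies apart from the other members, which sit between -0.66 and 0.57.

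Among the rulers and the core of the Z-disc, 0 of 8 members rose, 1 fell and 7 did not pass the test, with a median log2 fold change of 0.17. The groups by role are small, so here and below their counts are description only, beside 8.35% of all genes called. Actn2 (ENSMUSG00000052374, chr13:12269426-12340760 in GRCm38, − strand) codes for an alpha-actinin found in all striated muscle fibres. Its level in CPM (counts relative to the library's total, scaled by TMM) was 250, 315, 379, 364 and 315 in RGECO replicates 1, 2, 3, 5 and 6, and in WT the lowest was 396, the median 507 and the highest 702. Every RGECO library lay below every WT library, a pattern that 4.5% of all genes showed. Actn2 fell by 0.66 on the log2 scale (SE 0.15, adjusted p = 0.0128). Actn3, the alpha-actinin of fast fibres, was at 722, 734, 947, 830 and 700 CPM in RGECO and at 538, 649 and 955 as the lowest, median and highest in WT. The groups overlap for Actn3, and its log2 fold change of 0.19 (adjusted p = 0.502, SE 0.15) did not pass the test.

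The balance of Actn2 and Actn3 differed between the lines. Of the summed TPM of Actn2 and Actn3, Actn2 made up 24.8%, 30.9%, 28.4%, 29.5% and 30.9% in RGECO replicates 1, 2, 3, 5 and 6, and in WT the lowest was 40.9%, the median 42.1% and the highest 45.0%. No RGECO library reached the lowest WT share. The mean share was 42.4% ± 1.51 (SD, n = 6) in the WT libraries and 28.9% ± 2.50 (SD, n = 5) in the RGECO libraries, a difference of -13.5 percentage points given without a test. On TPM, Actn2 was at 216 ± 25.7 (SD, n = 6) and 149 ± 17.1 (SD, n = 5), and Actn3 at 294 ± 33.5 and 367 ± 41.8. With Actn1 and Actn4, the alpha-actinins of non-muscle cells, added to the sum, Actn2 made up 27.5% ± 1.82 (SD, n = 6) in the WT libraries and 18.2% ± 2.00 (SD, n = 5) in the RGECO libraries, which do not overlap either. Of the 429 member values, 49 were not whole within 0.001, and Actn2 and Actn3 were among the 16 members with such a value. In RGECO replicate 6 they were at 3762.9 and 8374.1 counts, so the departure from whole numbers was small there. Whether reads divided between genes gave such fractions was not tested.

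**Figure D3:**
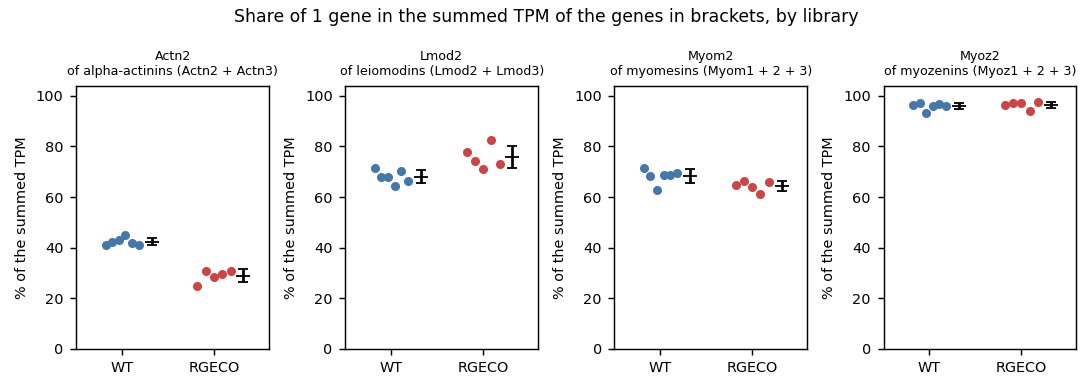
Share of summed TPM, in percent, for Actn2 in Actn2 and Actn3, Lmod2 in Lmod2 and Lmod3, Myom2 in the 3 myomesins and Myoz2 in the 3 myozenins, with 1 point per library and bars for the mean ± SD. Among the 4 shares drawn, that of Actn2 is the one whose lines do not overlap.

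Titin and nebulin did not pass the test. Ttn (ENSMUSG00000051747, chr2:76703980-76982547, − strand) was at 6771, 8520, 7151, 5617 and 7178 CPM in RGECO and at 4981, 6161 and 8810 as the lowest, median and highest in WT. RGECO lies within the WT range, with a log2 fold change of 0.07 (adjusted p = 0.844, SE 0.16, 95% interval -0.26 to 0.40). Neb (ENSMUSG00000026950, chr2:52136647-52378474, − strand) was at 1648, 2760, 2370, 1776 and 2303 CPM in RGECO and at 1494, 1594 and 2039 in WT. The 3 highest Neb values are RGECO libraries and the groups overlap, with a log2 fold change of 0.36 (adjusted p = 0.144, SE 0.14). With the mitochondrial share as covariate in the same edgeR test, Neb passed (adjusted p = 0.0325). Desmin, the most abundant member of its group, was at 5461, 4242, 5462, 6079 and 4518 CPM in RGECO and at 2999, 3589 and 5077 in WT. WT replicates 2 and 3 reached into the RGECO range, and the log2 fold change of 0.44 (SE 0.15) had an adjusted p of 0.0965. Without WT replicate 2 it was 0.55 (adjusted p = 0.0266), and Des also passed in DESeq2 (adjusted p = 0.0428) and on log2(TPM + 1) with limma (adjusted p = 0.0161). Of the other members, Tcap (telethonin, the titin cap), Ldb3 (a PDZ-LIM protein that binds alpha-actinin) and Flnc (muscle filamin) had log2 fold changes between -0.11 and 0.18.

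The thin filament end proteins held both the member with the smallest adjusted p and the one with the largest fold change. Lmod2 (ENSMUSG00000029683, chr6:24597762-24605414, + strand), a leiomodin that nucleates and elongates actin filaments, was at 236, 251, 263, 289 and 277 CPM in RGECO and at 167, 171 and 195 as the lowest, median and highest in WT. Every RGECO library lay above every WT library, a pattern that 3.47% of all genes showed. Its mean went from 177 ± 12.6 CPM (SD, n = 6) to 263 ± 20.8 (SD, n = 5), a log2 fold change of 0.57 (adjusted p = 0.00101, SE 0.09). Its relative Lmod3, the leiomodin whose loss causes nemaline myopathy, was at 76.6, 98.9, 120, 69.7 and 116 CPM in RGECO and at 80.8, 95.01 and 105 in WT. The RGECO values of Lmod3 lie on both sides of the WT range, with a log2 fold change of 0.03 (adjusted p = 0.942, SE 0.14). Of Lmod2 and Lmod3 together on TPM, Lmod2 was 68.0% ± 2.59 (SD, n = 6) in the WT libraries and 75.7% ± 4.44 (SD, n = 5) in the RGECO libraries, where the highest WT library (71.4%) and the lowest RGECO library (71.2%) overlap. With Lmod1, the smooth muscle leiomodin, also counted, the highest WT share was 69.9% and the lowest RGECO share 70.6%, which do not overlap.

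Tmod4 (ENSMUSG00000005628, chr3:95124476-95129209, + strand), the skeletal muscle tropomodulin, was at 1.61, 2.16, 1.54, 0 and 1.25 CPM in RGECO and at 2.52, 4.89 and 6.69 as the lowest, median and highest in WT. These are 0 to 22 counts in RGECO and 26 to 68 in WT, all RGECO libraries below all WT libraries. Tmod4 fell by 1.75 on the log2 scale (SE 0.48, adjusted p = 0.0327, 95% interval -2.77 to -0.73). RGECO replicate 5, with 0 counts, is the shallowest library, where 3 counts correspond to 0.525 CPM. Leaving out WT replicate 1, 3 or 4, or RGECO replicate 1, 3 or 6, ended the call, at adjusted p of 0.0587 to 0.0708, as did a replicate block (0.0738). Tmod1, which is expressed in striated muscle and other cells, had a log2 fold change of 0.01 (adjusted p = 0.958, SE 0.10). Of the summed TPM of Tmod1 to Tmod4, Tmod1 made up 60.6% ± 3.05 (SD, n = 6) in the WT libraries and 60.5% ± 5.13 (SD, n = 5) in the RGECO libraries. Tmod4 made up 5.96% ± 1.58 (SD, n = 6) and 1.87% ± 1.30 (SD, n = 5) of that sum. Tmod1 overlaps Tstd2 on the other strand, which held 2072 counts over the WT and 1919 over the RGECO libraries, and strand is not stated.

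**Figure D4:**
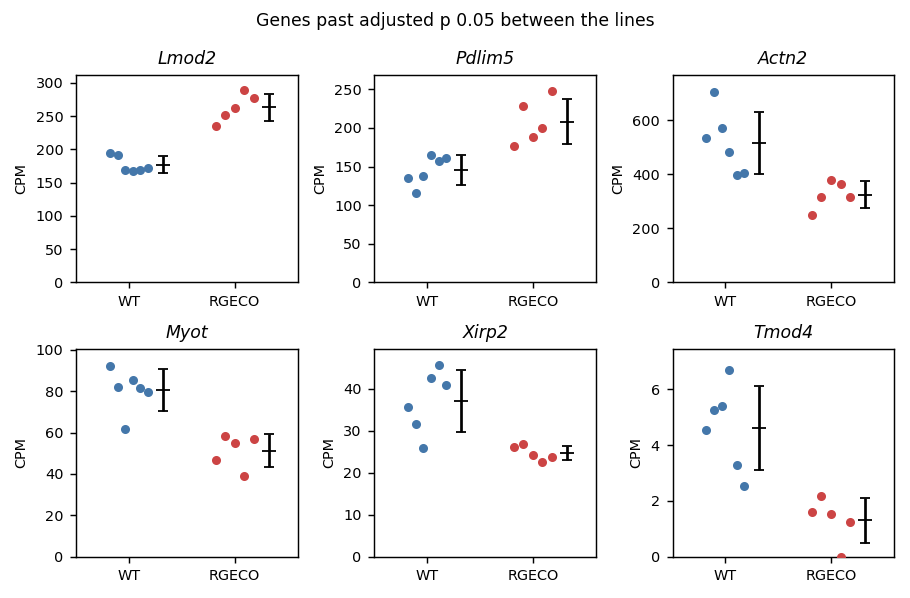
CPM of the 6 members past adjusted p 0.05, on axes that start at 0, with 1 point per library in replicate order and black bars for the mean ± SD. RGECO lies above WT for Lmod2 and Pdlim5 and below it for Actn2, Myot and Tmod4, while 1 WT library of Xirp2 at 25.8 CPM falls within the RGECO values.

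Of the 12 Z-disc adaptor and signalling genes, 11 were tested, 1 rose, 1 fell and 9 did not pass, with a median log2 fold change of -0.01. Pdlim5 (ENSMUSG00000028273, chr3:142239590-142395696, − strand), a PDZ-LIM protein that binds alpha-actinin and protein kinases, was at 176, 229, 188, 200 and 247 CPM in RGECO and at 116, 147 and 164 as the lowest, median and highest in WT. All RGECO libraries lay above all WT libraries, with a mean of 145 ± 19.0 (SD, n = 6) in the WT libraries and 208 ± 29.2 (SD, n = 5) in the RGECO libraries. Pdlim5 rose by 0.52 on the log2 scale (SE 0.12, adjusted p = 0.0130). It was not called with limma on log2(TPM + 1) without a filter, or with all 12 libraries. The relatives Pdlim3 and Pdlim7 did not pass the test. Pdlim3, whose mean TPM over the 11 libraries was the highest of the adaptors next to an almost equal Csrp3 (Csrp3 was higher in WT, at 269 against 242, and Pdlim3 in RGECO, at 273 against 240), was at 224, 304, 318, 243 and 288 CPM in RGECO and at 249, 259 and 323 in WT, which overlap, with a log2 fold change of -0.01 (adjusted p = 0.982, SE 0.12). Pdlim7 had a log2 fold change of -0.47 (adjusted p = 0.0789, SE 0.16), and it passed without WT replicate 6 (adjusted p = 0.0376) and without a filter on low counts. On TPM, the mean of Pdlim7 was nearly equal, at 113 in the WT libraries and 112 in the RGECO libraries.

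Myot (ENSMUSG00000024471, chr18:44334074-44355724, + strand) codes for myotilin, an immunoglobulin-domain protein that binds alpha-actinin and filamin and bundles actin. It was at 46.7, 58.4, 54.9, 39.2 and 57.0 CPM in RGECO and at 61.8, 81.8 and 92.1 as the lowest, median and highest in WT. The groups do not overlap, although WT replicate 3 at 61.8 lies close to the highest RGECO library at 58.4. Myot fell by 0.65 on the log2 scale (SE 0.13, adjusted p = 0.00598), from 80.4 ± 10.1 CPM (SD, n = 6) to 51.2 ± 8.12 (SD, n = 5), and on log2(TPM + 1) the adjusted p was 0.0693. Its relatives Mypn (myopalladin) and Palld (palladin) had log2 fold changes of -0.28 (SE 0.11, adjusted p = 0.128) and -0.29 (SE 0.11, adjusted p = 0.123), neither past the test.

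The myozenins, which tether calcineurin at the Z-disc, were carried by Myoz2, with 146, 178, 187, 107 and 194 CPM in RGECO and 116, 143 and 153 as the lowest, median and highest in WT. The groups overlap, and the log2 fold change was 0.23 (SE 0.14, adjusted p = 0.384). Myoz2 made up 96.0% ± 1.34 (SD, n = 6) of myozenin TPM in the WT libraries and 96.4% ± 1.36 (SD, n = 5) in the RGECO libraries. Myoz1, known as a myozenin of fast fibres, was at 6.304, 4.03, 6.43, 8.05 and 3.43 CPM in RGECO and at 4.43, 5.54 and 6.87 in WT, with a log2 fold change of 0.01 (adjusted p = 0.991, SE 0.25). Myoz3 held 0 to 16 counts per library. The other adaptors, Synpo2l (an actin-binding protein of the Z-disc), Csrp3 (muscle LIM protein) and Ankrd2 (a stretch-responsive ankyrin protein), had log2 fold changes between -0.27 and 0.14.

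At the M-band and thick filament, 0 of 7 members passed the test in either direction, and the median log2 fold change was 0.06. With 7 members, and 8.35% of all genes called, this count does not set the group apart. Myom2, the myomesin of fast fibres, was at 906, 984, 1045, 1061 and 989 CPM in RGECO and at 855, 954 and 1141 as the lowest, median and highest in WT. Its RGECO libraries lie within the WT range, with a log2 fold change of 0.04 (adjusted p = 0.860, SE 0.10, 95% interval -0.17 to 0.25). Myom1, present in all striated muscle, was at 224, 231, 263, 260 and 258 CPM in RGECO and at 199, 213 and 258 in WT, with a log2 fold change of 0.18 (adjusted p = 0.296, SE 0.10). Myom3, a myomesin known from slower fibres, was at 326, 329, 398, 317 and 305 CPM in RGECO and at 219, 258 and 365 in WT, with a log2 fold change of 0.28 (adjusted p = 0.254, SE 0.14). Both overlap between the lines. Myom1 overlaps Myl12a on the other strand, which held 15464 counts over the WT and 15313 over the RGECO libraries. Strand is not stated, so it is not known whether reads from the shared bases were told apart.

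Of myomesin TPM, Myom2 made up 68.3% ± 2.92 (SD, n = 6) in the WT libraries and 64.3% ± 2.15 (SD, n = 5) in the RGECO libraries, and the lines overlap. Mybph, the most abundant member of its group, was at 1925, 2359, 3090, 2208 and 2176 CPM in RGECO and at 1760, 2165 and 3025 in WT. The lines cover nearly the same range, with a log2 fold change of 0.06 (adjusted p = 0.888, SE 0.16). Of the summed TPM of Mybph, Mybpc1 and Mybpc2, Mybph made up 90.5% ± 1.21 (SD, n = 6) in the WT libraries and 92.0% ± 0.841 (SD, n = 5) in the RGECO libraries, with Mybpc1 (the slow form) and Mybpc2 (the fast form) making up the rest. Mybph overlaps Adora1 on the other strand, which held 344 counts over the WT and 900 over the RGECO libraries, so its counts carry the same limit as those of Myom1. Mybpc1, Mybpc2 and Obsl1, an obscurin-like linker of titin and myomesin, had log2 fold changes between -0.15 and 0.12.

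Of the 8 assembly, chaperone and turnover genes, 0 rose, 1 fell and 7 did not pass, with a median log2 fold change of -0.13. Xirp2 (ENSMUSG00000027022, chr2:67446002-67526614, + strand), a Xin repeat protein that binds actin, was at 26.0, 26.8, 24.2, 22.6 and 23.8 CPM in RGECO and at 25.8, 38.2 and 45.5 as the lowest, median and highest in WT. WT replicate 3 lies within the RGECO range and the other 5 WT libraries lie above it. Xirp2 fell by 0.58 on the log2 scale (SE 0.15, adjusted p = 0.0222). The call ended on leaving out WT replicate 4 or 5, or replicate 3 or 6 of RGECO (adjusted p 0.0519 to 0.0635), with a replicate block (0.0984) and on TPM, where the log2 difference was -0.13 (adjusted p = 0.821). Its relative Xirp1 had a log2 fold change of -0.06 (adjusted p = 0.871, SE 0.14).

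Klhl41, a kelch protein that stabilises nebulin and is the most abundant gene of this group on TPM, was at 731, 890, 759, 682 and 1051 CPM in RGECO and at 479, 610 and 831 as the lowest, median and highest in WT. The groups overlap, and its log2 fold change was 0.37 (SE 0.15, adjusted p = 0.167). Klhl40, the kelch protein that stabilises nebulin and Lmod3, had a log2 fold change of 0.04 (adjusted p = 0.943, SE 0.19). Nrap (a nebulin-related anchoring protein of early myofibrils), Smyd1 (a muscle methyltransferase), Unc45b (a myosin chaperone) and Fhod3 (an actin-assembling formin) had log2 fold changes between -0.32 and -0.12.

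A readout that the counts alone do not give is the mean length of the transcripts assigned to a gene, which is proportional to its estimated count divided by its TPM. With limma over 8805 genes, 0 genes and 0 of 36 members tested passed adjusted p 0.05 (0% of genes), while 331 genes and 2 members had an unadjusted p below 0.05. The 2 members, chosen after their values were seen, were Ttn, whose implied length was 13.2% greater in RGECO (unadjusted p = 0.0252), and Pdlim7, where it was 20.4% smaller (unadjusted p = 5.28e-04). Both had an adjusted p of 0.9997. In simulated data for these 8805 genes, a shift of 0.3 on the log2 scale was recovered in 48% of changed genes, and smaller shifts were not simulated. The simulation used normal noise and shifted many genes at once, so it does not give the chance of finding a shift in few genes.

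The members also varied with the Malat1 share within the lines. In a count fit with the line and the Malat1 share together, 14 of 38 members had lower counts with a higher share, against 12.3% of all genes, and 1 had higher counts, against 15% of all genes. Per SD of the share, the median log2 change was -0.10 for the members and -0.003 for all genes. The mitochondrial share of counts moved with the Malat1 share in WT, where both were lowest in replicate 2 (0.204% mitochondrial) and both were highest in replicates 4 to 6 (1.16% to 1.68%, against 0.204% to 0.754% in replicates 1 to 3). The members' median deviation from their line's mean on the log2 scale was 0.07 to 0.22 in WT replicates 1 to 3 and -0.17 to -0.05 in replicates 4 to 6. The part of the mitochondrial share and of this split in the slopes was not tested. The largest decreases were those of Ankrd2 by 0.40 (adjusted p = 7.82e-04), Tcap by 0.35 (adjusted p = 0.0170), Klhl40 by 0.34 (adjusted p = 7.89e-04) and Obsl1 by 0.29 (adjusted p = 0.00518). Among the members called between the lines, Actn2 had such a slope (-0.24, adjusted p = 0.00396), and Lmod2, Pdlim5, Myot, Xirp2 and Tmod4 did not pass. Klhl41 was the member that increased, by 0.22 (adjusted p = 0.0118), while its relative Klhl40 decreased. With each library left out in turn, the number of members with a lower slope was 6 to 17. It was 6 without WT replicate 2 and 8 without WT replicate 6, and no member increased without WT replicate 2 or RGECO replicate 6. The share of all genes was not counted in these fits, and the 12.3% above belongs to the fit of all 11 libraries. Whether the members still differ from all genes with a library left out is therefore not known.

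**Figure D5:**
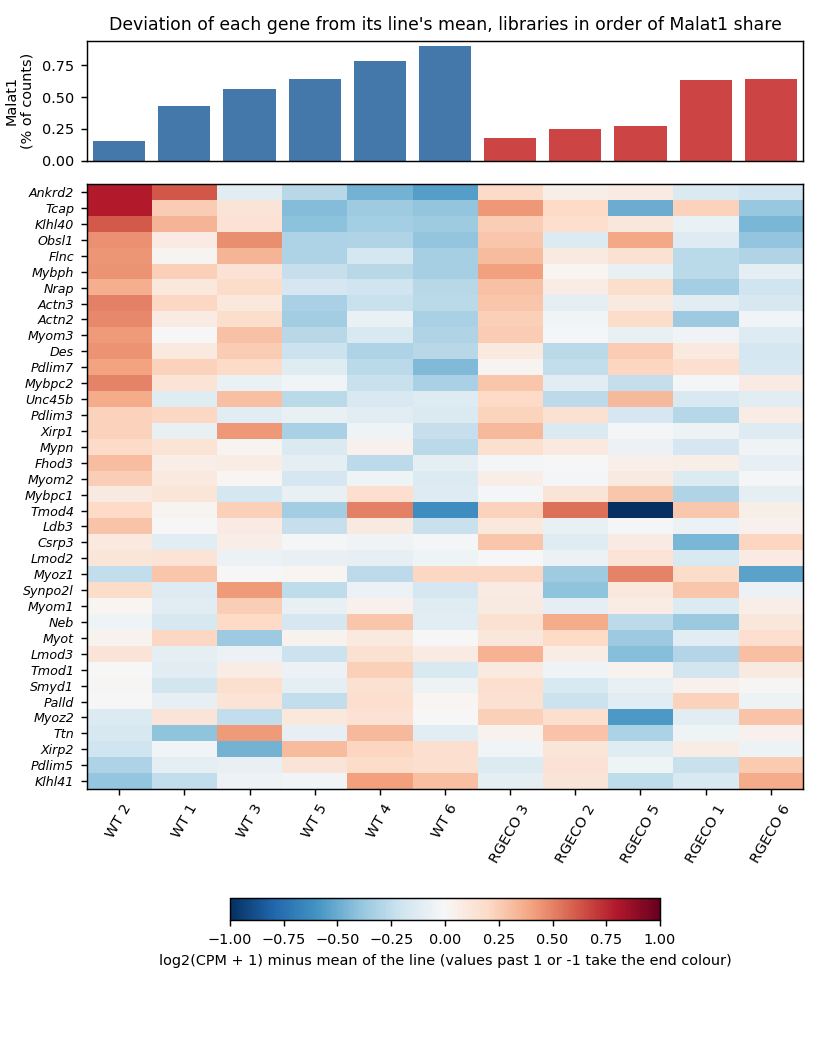
Malat1 share of counts in percent for each library (bars), above the deviation of each member's log2(CPM + 1) from the mean of its line (colour), with libraries ordered by Malat1 share within each line and genes by their slope. Ankrd2, Klhl40 and Tcap tend to be high in the libraries with a low Malat1 share, and Klhl41 tends the other way.

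Beyond the members, 56 other genes of the sarcomere scaffold were listed and 52 were tested, of which 2 rose, 4 fell and 46 did not pass, with a median log2 fold change of 0.03. These 6 calls are 11.5% of the genes tested on the list, near the 8.35% of all genes, so the counts are not a result particular to the list. The 2 that rose were Trim55, a titin-binding ubiquitin ligase (0.37, SE 0.11, adjusted p = 0.0429), and Pdlim1, a PDZ-LIM protein that binds alpha-actinin (0.36, SE 0.10, adjusted p = 0.0336). The lines do not overlap for either, with means of 96.0 and 124 CPM for Trim55 and 61.2 and 78.8 CPM for Pdlim1 in WT and RGECO. Of those that fell, Cmya5, which codes for myospryn, a partner of desmin and alpha-actinin, decreased by 1.01 (SE 0.13, adjusted p = 1.90e-04), from 45.6 ± 6.10 CPM (SD, n = 6) to 22.7 ± 2.23 (SD, n = 5). Mylk4, a kinase of the myosin light chain kinase family, decreased by 0.98 (SE 0.12, adjusted p = 1.22e-04), from 139 ± 20.8 CPM (SD, n = 6) to 70.3 ± 6.41 (SD, n = 5). Neither overlaps between the lines. Igfn1, a Z-disc immunoglobulin protein, fell by 0.54 (adjusted p = 0.0241), and Unc45a, the general form of the myosin chaperone, fell by 0.60 (adjusted p = 0.0257), and the lines overlap for both. With each of the 11 libraries left out in turn, Cmya5 and Mylk4 passed in all 11, Igfn1 in 7, Pdlim1 in 6, Unc45a in 5 and Trim55 in 2, with adjusted p of at most 0.0910 where they did not.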

How the data were processed

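Per the file headers, the authors deposited merged Salmon tables of estimated counts, not normalized, and of TPM, corrected for length and scaled to a common sum. Per the submitters' processing notes, Salmon, STAR, bedtools 2.25.0 and BWA 0.7.12-r1039 were used, with the builds mm10, hg19 and GRCm39. The sources used here give neither their roles nor the annotation or strand setting. Rounded estimated counts went into edgeR 4.0.16 under R 4.3.3 (filterByExpr, TMM, robust quasi-likelihood F test, Benjamini-Hochberg over 13318 genes, threshold 0.05), on 6 WT and 5 RGECO libraries. RGECO replicate 4 was left out for its total. The common coefficient of variation was 25.2%, and 3 counts correspond to 0.246 to 0.525 CPM. On simulated counts for these 13318 genes the test recovered 60% of 2-fold and 92% of 4-fold changes, and 2.56% of its calls were unchanged genes.

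Implied transcript length was the log2 ratio of estimated count to TPM, centred per library, over genes with at least 50 counts in every library, tested with limma 3.58.1. In its simulation 9.43% of calls were unchanged genes. Shares of summed TPM, over the members of a family unless others are named, are described without a test. The fit with the Malat1 share was planned as an alternative, and its slopes were read after the data were seen. Other alternatives were RLE scaling, DESeq2 1.42.0, no filter, a replicate block, all 12 libraries, limma on log2(TPM + 1) and log2(TPM + 0.1), the mitochondrial share and leaving out each library. Coordinates are from GENCODE M21 (GRCm38), matched by gene identifier, and promoters from RefSeq (GRCm38.p6). The genes of the files may follow another build, so coordinates locate the genes only.

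The members and lists were chosen with earlier results of these data known. Values per library are given for members past the threshold, Ttn, Neb, the most abundant member of each role by TPM, and the alpha-actinins, leiomodins, myomesins and myozenins. From the other scaffold genes, up to 4 rises and 4 falls past the threshold are named. Chi-square per gene between libraries of the same line was 7.69 or more in all 25 pairs, so none was treated as a repeat.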

Additional observations from a re-analysis of the deposited data

Results flagged for a closer look

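In 98 groups of libraries (each member's CPM and each family share, in each line), 4 held a library far from the others, where chance gives about 1 in 20, or 4.9. In RGECO replicate 3, Myom3 was at 398 CPM, against 329 in the next RGECO library. In the same library, Xirp1 was at 247 CPM, against 195 in the next. In WT replicate 3, Myom2 made up 62.7% of myomesin TPM, against 68.4% in the next WT library. In that library too, Myoz2 made up 93.4% of myozenin TPM, against 96.1% in the next.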

How the results depend on the processing

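Among the 6 member calls, Lmod2, Pdlim5, Actn2 and Myot passed with each of the 11 libraries left out. All 6 passed with RLE scaling, DESeq2, no filter and the Malat1 or mitochondrial share as covariate. The replicate numbers showed no clear pairing of the libraries (same-number correlations -0.15 to 0.36 over 5 pairs, 1 RGECO library closest to its own number), and the labels do not settle it. With the replicate block, 2 members were higher and 2 lower, and 300 genes higher. With all 12 libraries, 0 members and 237 genes were higher, and Myot, Tmod4 and Xirp2 still passed. Members lower numbered 2 on log2(TPM + 1), 1 on log2(TPM + 0.1) and 0 on TPM without a filter. With the Malat1 share, 8 of 38 members and 1376 of 13318 genes were lower. With the mitochondrial share, 10 members and 1519 genes were lower, and 5 members and 1614 genes were higher. The main fit had 656 genes lower and 456 higher, so calls over all genes rose in both fits too. With the Malat1 share, Klhl41 was also called higher, and Fhod3, Mypn, Nrap and Pdlim7 lower. With the mitochondrial share, Des, Klhl41 and Neb were also called higher, and Fhod3, Mypn, Nrap, Obsl1, Palld and Pdlim7 lower. Genes higher numbered 140 on TPM without a filter and 1395 with the Malat1 share. Genes lower numbered 231, 220 and 118 on the 3 TPM fits. Leaving out each library gave 2 to 3 members higher and 2 to 5 lower (2 without WT replicate 4, RGECO replicate 3 or RGECO replicate 6), and 330 to 478 genes higher and 455 to 662 lower. The cause of these moves was not tested. The implied length fit gave 0 calls in every alternative run, a replicate block included.

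Several uncalled members changed sign. With all 12 libraries these were Ttn (-0.18), Actn3 (-0.022), Myom2 (-0.19), Lmod3 (-0.015), Tmod1 (-0.054), Klhl40 (-0.015), Flnc (-0.077) and Mybph (-0.19). On TPM they were Tcap (0.032), Xirp1 (0.061 or 0.063), Pdlim3 (0.17) and Synpo2l (0.10 or 0.11). With the Malat1 share they were Myom2 (-0.032), Klhl40 (-0.18), Flnc (-0.033), Myoz1 (-0.025), Ankrd2 (-0.066) and Mybph (-0.12). With the mitochondrial share they were Myom2 (-0.00012), Klhl40 (-0.11), Myoz1 (-0.093) and Mybph (-0.025). With RLE they were Pdlim3 (0.0062) and Synpo2l (0.014), with DESeq2 Pdlim3 (0.0057) and Synpo2l (0.013), and Myoz1 without a filter (-0.0013) and with the block (-0.083). Over the fits without 1 library, the range was -0.24 to 0.11 for Tcap, -0.063 to 0.13 for Lmod3, -0.0092 to 0.075 for Tmod1, -0.15 to 0.058 for Xirp1, -0.026 to 0.19 for Klhl40, -0.065 to 0.058 for Pdlim3, -0.073 to 0.11 for Synpo2l, -0.14 to 0.17 for Myoz1 and -0.060 to 0.17 for Mybph. The difference in Myoz2 share ranged from -0.117 to 0.984 points. On estimated counts in place of TPM, the share of Tmod4 in Tmod1 and Tmod4 differed by -2.11 points (-5.94 on TPM) and that of Xirp2 in both Xin genes by -4.56 (-1.14 on TPM). With Actn1 and Actn4 in the sum, chosen after the data were seen, the Actn2 share differed by -9.29 points. The TPM fits with a filter moved the median of all genes to 0.095 (with 1 added) and 0.099 (with 0.1 added), so their changes are relative to that. Without a filter the median was -0.002.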
